A study of Mus musculus with 6 samples.

Results

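AGO2 hybrids of 9 5p-miRNAs were followed in P19, an embryonic carcinoma line of the mouse, with wild-type or mutant Dicer. The 9 strands were mmu-miR-7a-5p, mmu-miR-15b-5p, mmu-miR-16-5p, mmu-miR-18a-5p, mmu-miR-26a-5p, mmu-miR-181a-5p, mmu-miR-298-5p, mmu-miR-361-5p and mmu-miR-374b-5p, written below without the species prefix. They were taken by name from the 298 miRNAs in the hybrid table, of which 123 were 5p strands. They are guide strands known from many tissues and belong to neither the miR-290 nor the miR-302 cluster, the clusters that mark pluripotent mouse cells. Only 1 cell line was measured, so how broadly they are expressed was not tested. They were chosen by name with their hybrid reads in these same libraries, WT and HM, in view, and their levels in the genotypes are therefore given as a description, without a p-value.

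CLASH joins a miRNA held by AGO2 to the piece of mRNA beneath it, so a hybrid read names both partners. There were 3 libraries of WT cells, genotype Dicer (+/+), and 3 of HM cells, genotype Dicer (HM/-). In HM cells 1 allele carried a hotspot mutation within the IIIb nuclease domain and the other was a truncated, loss-of-function copy. They came from a single clone, so that genotype and clone cannot be told apart. The labels name no drug treatment for either genotype, and every library came from AGO2 immunoprecipitation. The 6 libraries were labelled as biological replicates.

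Dicer cuts a miRNA hairpin with a pair of RNase III domains. The IIIa domain cuts the 3p arm and the IIIb domain the 5p arm, and 1 strand of the freed duplex is loaded into AGO as the guide while its partner, the passenger, is usually lost. A guide finds its targets mainly through the seed, bases 2 to 8 from its 5′ end, and pairing of the 3′ part can add to it. A match to the seed followed by an A is called an 8mer, a match to bases 2 to 8 alone a 7mer-m8, a match to bases 2 to 7 followed by an A a 7mer-A1, and a match to bases 3 to 8 an offset 6mer.

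The mature sequences below, from RefSeq (GRCm38.p6), show which of the 9 share a seed. The seed is in capitals.
miR-15b-5p: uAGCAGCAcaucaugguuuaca
miR-16-5p: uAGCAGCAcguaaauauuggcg
miR-26a-5p: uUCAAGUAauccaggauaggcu
miR-18a-5p: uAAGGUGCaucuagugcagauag
miR-298-5p: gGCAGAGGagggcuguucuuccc
miR-361-5p: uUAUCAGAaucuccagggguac
miR-181a-5p: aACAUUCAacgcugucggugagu
miR-7a-5p: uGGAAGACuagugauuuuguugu
miR-374b-5p: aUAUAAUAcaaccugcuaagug

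The 9 strands carried 8 distinct seeds. miR-15b-5p and miR-16-5p were the pair with a common seed, and their first 9 bases were identical. The seed of miR-18a-5p differed at 1 base from that of miR-17-5p, although both come from the same primary transcript. miR-15b-5p lies at chr3:69009775-69009796 and a copy of miR-16-5p at chr3:69009918-69009939, both on the plus strand and within the span of Smc4, a condensin subunit gene. The other copy of miR-16-5p lies at chr14:61631936-61631957 within the lncRNA gene Dleu2. The copies of miR-26a-5p lie at chr9:119031811-119031832 within Ctdspl and at chr10:126995543-126995564 within Ctdsp2, a pair of related phosphatase genes. miR-7a-5p has a copy at chr13:58392841-58392863 within Hnrnpk and another at chr7:78888295-78888317, and miR-181a-5p has copies at chr1:137966468-137966490 and at chr2:38852741-38852763 within Nr6a1. miR-18a-5p lies at chr14:115043867-115043889, miR-298-5p at chr2:174267553-174267575, miR-361-5p at chrX:113074867-113074888 within Chm and miR-374b-5p at chrX:103573112-103573133 within the lncRNA gene Ftx. Whether these positions are exonic or intronic was not examined.

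Total hybrid reads were 1929, 2331 and 1621 in the WT libraries, in the order of their replicate numbers, and 1661, 5341 and 2797 in the HM libraries. 5p-miRNAs accounted for 1005, 1233 and 911 of these in WT but for 70, 194 and 107 in HM, and 3p-miRNAs for 916, 1091 and 701 in WT but for 1585, 5113 and 2670 in HM. miRNAs of the miR-290 cluster made up 8.14 to 9.78% of WT hybrids and 4.82 to 5.47% of HM hybrids, and those of the miR-302 cluster 26.3 to 29.0% and 51.4 to 53.9%. Of 9 miRNAs that mark other cell types, miR-9 alone had hybrids, with 10 reads over the 6 libraries. WT libraries 1 and 2 differed by no more than sampling noise in their miRNA counts (chi-square p = 0.674 over 36 miRNAs), as did every pair of HM libraries (p = 0.0692 to 0.741), whereas WT library 3 differed from both others (p = 0.00101 and 2.62e-07). No more than 5.02% of the whole hybrid sequences of a library were found in another of the same genotype, and the libraries were kept as separate samples. Where no read was seen, up to 3 reads remain possible, 0.0562 to 0.185% of a library. This floor and all intervals cover counting error only.

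In WT cells the 9 strands gave 91, 100 and 95 reads, and in HM cells 1, 10 and 3. This was 4.96% ± 0.812 (SD, n = 3) of WT hybrids against 0.118% ± 0.0642 (n = 3) of HM hybrids. Relative to the hybrids of 5p-miRNAs alone, they made up 9.20% ± 1.17 in WT and 3.13% ± 1.88 in HM. Each of the 9 had a read in every WT library, whereas 1, 5 and 2 of them had a read in HM libraries 1 to 3. The HM library with the most reads of the 9 was also the deepest. A share of hybrids cannot tell fewer AGO2-bound molecules per cell from fewer cells that hold them.

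miR-26a-5p, a strand known to restrain growth and found in most differentiated tissues, led the group. It had 24, 23 and 36 reads in WT libraries 1 to 3 (1.48% ± 0.651 of hybrids) and none in HM. miR-18a-5p, a member of the miR-17-92 cluster, followed with 19, 24 and 21 WT reads (1.10% ± 0.168) and 0, 1 and 0 HM reads. miR-16-5p had 12, 14 and 19 WT reads (0.798% ± 0.324) and 0, 1 and 1 HM reads. miR-16-5p is best known for targeting cyclins of the G1 phase. These strands ranked 8, 11 and 14 among the 119 5p-miRNAs with a WT read, and their WT ranges overlapped from one to the next.

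miR-298-5p, whose hairpin lies near the imprinted Gnas locus, had 14, 10 and 7 WT reads (0.529% ± 0.171) and none in HM. miR-15b-5p had 5, 9 and 4 WT reads (0.297% ± 0.0771), and its 3 HM reads all lay in library 2. miR-361-5p had the same WT counts, 5, 9 and 4 reads, and none in HM. The WT range of miR-298-5p overlapped that of miR-16-5p above it and not those of miR-15b-5p and miR-361-5p below it.

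The remaining strands had few reads in either genotype. miR-181a-5p, known from lymphocyte development, had 6, 3 and 1 WT reads (0.167% ± 0.129) and 1, 1 and 0 HM reads. miR-7a-5p, known from neurons and endocrine cells, had 3, 5 and 2 WT reads (0.164% ± 0.0462) and none in HM. miR-374b-5p had 3, 3 and 1 WT reads (0.115% ± 0.0483) and 0, 4 and 2 HM reads (0.0488% ± 0.0423). Their WT ranges overlapped one another, and they ranked 30, 30 and 37 among the 119 strands.

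**Figure D1:**
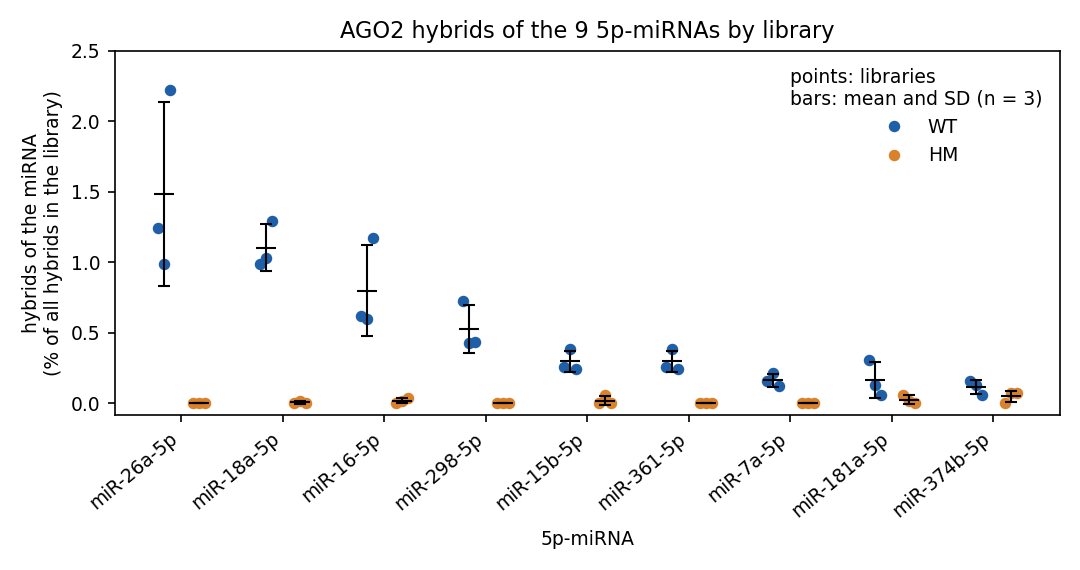
Hybrids of each of the 9 5p-miRNAs as a percent of all hybrids in a library, for 3 WT (blue) and 3 HM (orange) libraries, with points for libraries and bars for mean and SD. Every WT point lies above every HM point except for miR-374b-5p, and miR-26a-5p, miR-298-5p, miR-361-5p and miR-7a-5p lie at 0 in all HM libraries. For miR-181a-5p the lowest WT point (0.0617%) and the highest HM point (0.0602%) are 1 read each.

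For 8 of the 9 strands every WT library lay above every HM library, where 30.9% of the 94 miRNAs with at least 10 reads showed this order. For miR-374b-5p the genotypes overlapped. For miR-181a-5p the order rested on 1 read in WT library 3 (0.0617%) against 1 read in HM library 1 (0.0602%). Fold changes were taken relative to 3p hybrids, because the 5p hybrids were low together. With 3 reads set in place of none over the HM libraries and the WT count taken as exact, miR-26a-5p was 95.7-fold lower in HM. On this basis miR-298-5p was 35.7-fold lower, miR-361-5p 20.8-fold and miR-7a-5p 11.5-fold. The 95% exact intervals of the HM to WT ratio, which also cover the WT count, reached 0.0131, 0.0365, 0.0657 and 0.129 in that order. Relative to all hybrids the folds were 46.1, 17.2, 10.0 and 5.55, and the intervals reached 0.0273, 0.0758, 0.137 and 0.268. The ratios that follow were likewise nearer to 1 relative to all hybrids. The HM to WT ratio was 0.00452 (95% exact interval 0.000113 to 0.0261) for miR-18a-5p and 0.0128 (0.00151 to 0.0492) for miR-16-5p. It was 0.0482 (0.00909 to 0.165) for miR-15b-5p, or 0.100 (0.0189 to 0.343) relative to all hybrids, and 0.0578 (0.00616 to 0.271) for miR-181a-5p. For miR-374b-5p the ratio was 0.248 (0.0688 to 0.861), and relative to all hybrids it was 0.514 (0.143 to 1.79), an interval that holds equal shares. In the fit across 94 miRNAs 8 of the 9 were called lower in HM, beside a background of 43.6% of miRNAs called lower and 59.6% called in either direction. The 56 calls over all miRNAs were 15 higher and 41 lower, and with all hybrids as library size they were 32 higher and 31 lower. Their median log2 fold change was -5.94, that of the 25 other 5p-miRNAs was -6.68 with 24 of them called lower, and that of all miRNAs was -0.72. These are the reads that were known when the members were picked, and nothing is drawn from the counts.

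Relatives with the same seed had fewer WT reads than the member they resemble. miR-26b-5p, which differs from miR-26a-5p at 2 bases over its length, had 12, 8 and 5 WT reads and none in HM. With 3 reads set in place of none in HM, it was 28.8-fold lower relative to 3p hybrids. The exact interval of its HM to WT ratio reached 0.0460. miR-15a-5p had 2, 2 and 3 WT reads and none in HM. miR-18b-5p had 1, 4 and 3 WT reads and 1, 1 and 1 HM reads. miR-195a-5p and miR-497a-5p with 3 WT reads each, miR-322-5p with 2, miR-181b-5p with 3, and miR-181c-5p and miR-181d-5p with 1 each had no HM read. miR-7b-5p and miR-374c-5p were not in the table.

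The 3p strands of the same hairpins are cut by the other RNase III domain, and their reads played no part in the choice of the 9. Of 13 such strands listed, 6 had a hybrid. miR-18a-3p had no WT read and 2, 12 and 5 reads in HM libraries 1 to 3. With 3 reads set in place of none in WT, miR-18a-3p was 1.83-fold higher relative to 3p hybrids and 3.8-fold relative to all hybrids. The 95% exact intervals of its HM to WT ratio began at 1.35 and 2.80. miR-18a-3p was the only one of these 3p strands with the 10 reads needed for the fit, and it had them only through its HM reads. Its call there (edgeR, Benjamini-Hochberg adjusted p = 0.00889, where 16% of the 94 miRNAs were called higher) is therefore given as a value, not as support for a difference. The call was lost with DESeq2 (adjusted p = 0.0720), with the replicate number as a block in edgeR (0.0716) and without WT library 2 in edgeR (0.0765), and without HM library 2 too few reads were left to test it. miR-15b-3p had 1, 0 and 0 WT reads and 1, 4 and 3 HM reads, a ratio of 2.31 with a 95% exact interval of 0.310 to 103 that includes equal shares. miR-7a-1-3p had 1, 1 and 0 HM reads, miR-16-1-3p 1, 0 and 1, miR-16-2-3p 0, 0 and 1 and miR-361-3p 0, 1 and 0, all without a WT read. No hybrid was listed for the 3p strands of the miR-26a, miR-181a, miR-298 and miR-374b hairpins or for miR-7a-2-3p. In WT cells the 3p strands of all these hairpins thus gave a single read, that of miR-15b-3p.

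In WT cells the 286 reads of the 9 fell on 198 genes in 210 miRNA-gene pairs. They came from 282 distinct hybrid sequences, none with more than 2 reads. The miRNA part began at the annotated 5′ base in 265 of 282 WT sequences (94.0%) and in 14 of 14 HM sequences. Spread over genes differed widely within the group. To compare strands at equal depth, the number of genes that 10 of a strand's WT reads would hold on average was computed. It was 2.67 for miR-361-5p, 7.45 for miR-298-5p, and 9 to 9.71 for 6 others, with miR-374b-5p too scarce. Among the other 22 5p-miRNAs with at least 10 WT reads this number ranged from 7.04 to 10.0, with a median of 9.52. No test was made of these differences.

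**Figure D2:**
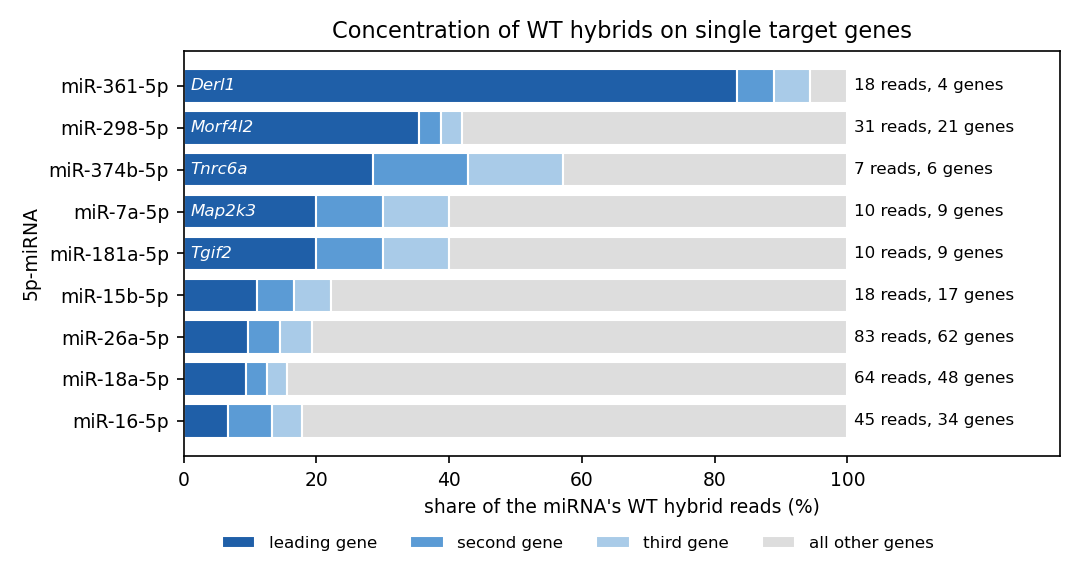
Share of each strand's WT reads, in percent on the horizontal axis, that fell on each of its 3 leading genes and on all others, pooled over 3 WT libraries. Derl1 took 83.3% of miR-361-5p reads and Morf4l2 35.5% of miR-298-5p reads, while no gene took more than 11.1% of the reads of miR-15b-5p, miR-16-5p, miR-18a-5p or miR-26a-5p.

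miR-361-5p was joined almost only to Derl1, which encodes derlin-1, a membrane protein of endoplasmic reticulum-associated degradation. Derl1 held 4 of 5, 7 of 9 and 4 of 4 of its reads in WT libraries 1 to 3, which is 83.3% of 18 reads (95% Wilson interval 60.8 to 94.2). Its other 3 reads fell on 3 other genes. All 15 Derl1 reads were separate entries and overlapped at 1 place. The stretch below was contained in 13 of the 15 fragments and is shown because it pairs with both ends of the miRNA. Capitals mark the bases complementary to miRNA bases 12 to 19 on the left and 1 to 7 on the right.
Derl1 with miR-361-5p: CCCCTGGAcctgattaggaagCTGATAAct

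The Derl1 site was a 7mer-A1 with 8 paired bases in the 3′ part of the miRNA. A run of at least 7 paired bases from base 12 onwards was present in 16 of 18 miR-361-5p reads (88.9%), against 0.307% of WT fragments joined to miRNAs of other seeds. Most of the 18 reads lay at this 1 Derl1 site, so the share largely counts the same site repeatedly. The miRNA part of the 15 Derl1 hybrids was shorter than the annotated strand. It was 19 to 21 nt long, 20 nt or less in 14 of 15 entries and full length (22 nt) in none. On other genes 2 of the 3 entries were full length. Whether the way hybrids were split into miRNA and target part bears on this length was not tested. No other strand was joined to Derl1 in WT cells. In HM cells Derl1 had 2 reads, both of 3p-miRNAs.

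miR-298-5p led with Morf4l2, which encodes a subunit of histone acetyltransferase complexes. Morf4l2 held 5 of 14, 1 of 10 and 5 of 7 of its reads in WT libraries 1 to 3, or 35.5% of 31 reads (95% interval 21.1 to 53.1), and the share ranged from 10% to 71.4% between libraries. The other 20 reads fell on 20 genes. All 11 Morf4l2 reads lay at 1 place, and 8 of the fragments contained the following 8mer site, with capitals for the bases complementary to miRNA bases 12 to 17 on the left and 2 to 9 on the right.
Morf4l2 with miR-298-5p: tgtaAACAGCccaTCCTCTGCaagt

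Unlike the Derl1 hybrids, 7 of the 11 Morf4l2 hybrids held the miRNA at full length. 3p-miRNAs gave 1 WT read and 1 HM read on Morf4l2.

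miR-26a-5p was spread over 62 genes, with Epha2, a receptor tyrosine kinase for ephrins, in front. Epha2 held 0 of 24, 4 of 23 and 4 of 36 of its reads in WT libraries 1 to 3, or 9.64% of 83 reads. Kpna2, an importin that carries cargo into the nucleus, followed with 2, 2 and 0 reads, and Tnrc6a, the scaffold protein GW182 through which AGO silences mRNAs, with 4 reads, all in WT library 3. The Epha2 and Kpna2 sites are shown because miR-26b-5p was joined to the same places, with 3 and 2 reads in that order, all in WT. The Tnrc6a site is shown beside them and had no miR-26b-5p read. Capitals mark bases complementary to bases 1 to 8 of miR-26a-5p.
Epha2: tgcccaacaaTACTTGAAgag
Kpna2: agaaactaTACTTGAAcag
Tnrc6a: tcagtttgaaTACTTGAAtcatg

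All of these are 8mer sites. The other 2 Tnrc6a reads of miR-26a-5p lay at a place without a seed match. miR-26a-5p and miR-26b-5p shared 8 genes, which is 12.9% of the genes of the first and 36.4% of the 22 genes of the second.

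miR-18a-5p was joined to 48 genes and led with Cdc42, a small GTPase that organises the actin cytoskeleton. Cdc42 had 3, 1 and 2 reads, 9.38% of the 64 WT reads. At the main Cdc42 site, with 5 reads, no seed match was present and the complementary stretch lay in the 3′ part of the miRNA, bases 14 to 20, in capitals here.
Cdc42 with miR-18a-5p: agagcccttTCTGCACagc

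miR-367-3p and miR-27b-3p were also joined to this place, with 1 read in WT and 2 in HM between them. Runs of at least 7 paired bases from base 12 onwards were found in 15.6% of miR-18a-5p reads, but the same run was present in 6.52% of fragments of miRNAs with other seeds. Foxk1 and Kdm2a were among the genes that miR-18a-5p shared with miR-17-5p, which was joined to 163 genes.

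miR-16-5p was joined to 34 genes. Arhgdia had 1 read in each WT library, and Ccnd1, the G1 cyclin D1, had 1, 0 and 2 reads. miR-15b-5p was joined to 17 genes by 18 reads. The genes common to both strands were Arhgdia, Cacul1 and Suco, 17.6% of the genes of miR-15b-5p and 8.82% of those of miR-16-5p. At the Arhgdia site miR-15b-5p gave 1 read. Of the 3 Ccnd1 reads of miR-16-5p, 2 lay at the site printed here and 1 at a place without a seed match. The sites are printed with the bases complementary to the common seed in capitals, bases 2 to 8 in Arhgdia and 1 to 7 in Ccnd1.
Arhgdia with miR-16-5p: tgtcacatTGCTGCTtctgcct
Ccnd1 with miR-16-5p: gttttcGCTGCTAttg

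The scarcer strands had no gene with more than 2 WT reads, and the leading genes named here for them were chosen after their values were seen. Wsb1, an adaptor of a ubiquitin ligase, had 2 of 18 miR-15b-5p reads at an 8mer site. Tgif2, a repressor of TGF-β responses, had 2 of 10 miR-181a-5p reads. Map2k3, a kinase upstream of p38, had 2 of 10 miR-7a-5p reads without a seed match. The reads on Tgif2 and on Map2k3 came in each case from 1 fragment in WT library 1, without which neither gene had a read of these strands. Tnrc6a had 2 of 7 WT reads of miR-374b-5p and 1 of its 6 HM reads. A miR-374b-5p fragment on Tnrc6a in HM library 3 shared 16 nt with a fragment of the miR-26a-5p 8mer site in WT library 3. Capitals mark the bases complementary to bases 2 to 8 of miR-374b-5p in this 8mer.
Tnrc6a with miR-374b-5p: catgcaggccaaTATTATAat

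Well-known targets of the 9 were listed as 78 miRNA-gene pairs. Most of these pairs had no WT hybrid, among them all those listed for miR-7a-5p, miR-181a-5p, miR-298-5p, miR-361-5p and miR-374b-5p. Ccnd1 with miR-16-5p had 3 WT reads, 2 of them at the seed site shown above. Ccne1 (cyclin E1) and Wee1 (a kinase that holds back mitosis) with miR-15b-5p and Smad2, a mediator of TGF-β signals, with miR-18a-5p had 1 WT read each. Of the 59 genes in these pairs, 28 had a hybrid of any miRNA in some library. At 7 to 83 WT reads a strand, and with hybrids filtered to predicted pairs, a missing read does not show that a pair was unbound.

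Fragments were searched for the reverse complement of bases 2 to 8 of their own strand. It was present in 50.9% ± 6.03 (n = 3 WT libraries) of the reads of the 9, in 43.1% ± 6.10 of those of other 5p-miRNAs and in 43.2% ± 2.55 of those of 3p-miRNAs, and no test of the difference was made. miR-15b-5p stood at 100% (18 of 18 reads, 95% Wilson interval 82.4 to 100), with every read in each of the 3 WT libraries. miR-16-5p, with the identical seed, stood at 53.3% (39.1 to 67.1). The intervals of this pair did not overlap. The same 7 letters were present in 0.345% of the fragments of miRNAs with other seeds. Among relatives with this seed, it was present in 3 of 7 miR-15a-5p reads, 3 of 3 of miR-195a-5p, 3 of 3 of miR-497a-5p and 2 of 2 of miR-322-5p.

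The seed match was present in 57.8% of miR-26a-5p reads (47.1 to 67.9), in 58.1% of miR-298-5p reads (40.8 to 73.6) and in 46.9% of miR-18a-5p reads (35.2 to 58.9). For miR-26a-5p the share ranged from 33.3% in WT library 1 to 73.9% in library 2 and 63.9% in library 3, and 39 of its 83 reads were 8mers. miR-26b-5p had it in 64% of 25 reads. In miR-374b-5p it was 42.9% of 7 reads, in miR-181a-5p 30% of 10 and in miR-7a-5p 10% of 10. In miR-361-5p it was 5.56%, and with bases 2 to 7 it was 83.3%, since 14 of its 18 reads were 7mer-A1 sites. Most reads of miR-361-5p lay at the 1 Derl1 site, so these shares mostly describe that site. The background for these strands lay at 0.0681 to 0.460%. The deposited hybrids had been filtered to predicted interactions, which favours genes with seed sites.

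**Figure D3:**
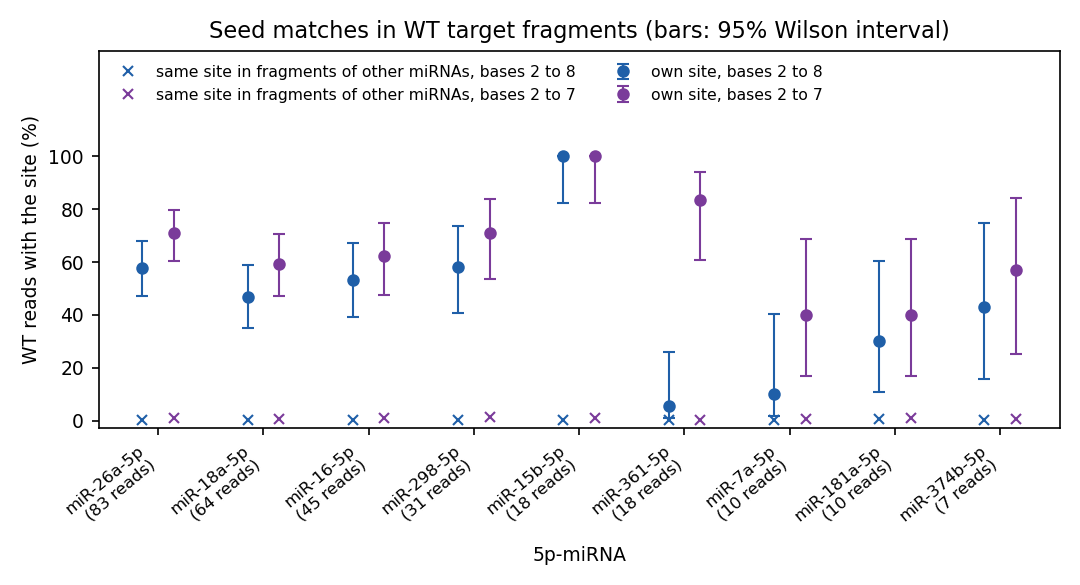
Percent of WT reads whose target fragment holds a match to bases 2 to 8 (blue) or 2 to 7 (purple) of the strand, with 95% Wilson intervals, beside the percent of fragments of miRNAs with other seeds that hold the same letters (crosses). miR-15b-5p stands at 100% for both, and miR-361-5p goes from 5.56% to 83.3% when base 8 is left out. Of the 18 reads of miR-361-5p, 15 lie at 1 Derl1 site, so its intervals count repeats of 1 site as separate reads.

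The 14 HM reads of the 9 were 14 entries on 13 genes. miR-374b-5p gave 6 of them, and named after their values were seen, its genes were Phip with 2 reads in library 2, Fem1b and Trappc11 in library 2, and Nfyb and Tnrc6a in library 3. Its seed match was present in 3 of these 6 reads (50%). The 3 reads of miR-15b-5p lay on App, Atp5g1 and Znf532, all 7mer-m8 sites in library 2. miR-16-5p had an 8mer on Cacul1, a gene it shared with miR-15b-5p in WT cells, and an offset 6mer on Dcun1d4. miR-18a-5p had a 7mer-m8 on Eif4b, a translation initiation factor. The miR-181a-5p reads on Nedd1 and Pcnp had no seed match.

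Genes bound by the 9 in WT cells were then examined for hybrids of other strands. Of the 198 genes, 122 (61.6%) had a hybrid of some miRNA in HM cells, beside 59.8% of the 1128 WT genes of other 5p-miRNAs and 78.1% of the 1121 WT genes of 3p-miRNAs. For genes held in WT by 1 of these sets alone, the shares were 39.1% of 87, 45.1% of 708 and 72.4% of 695. Depth differed between genotypes, and these shares were not tested.

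There were 12 genes with at least 3 WT reads of the 9. Derl1, Morf4l2, Epha2, Cdc42, Arhgdia, Etf1 (a translation termination factor) and Larp1 (a binder of mRNAs for the translation machinery) drew most or all of their WT hybrids from the 9, with 72.7 to 100% of WT reads. Of these, Epha2, Arhgdia, Etf1 and Larp1 had no hybrid of any miRNA in HM, after 11, 5, 3 and 4 reads in WT. The WT reads were 0, 0 and 3 by library for Etf1 and 0, 1 and 3 for Larp1, so most lay in WT library 3. Etf1 did not exceed the floor of 3 reads, and the absence of HM reads on these genes was not tested. Cdc42 had 7 WT reads, 6 of them miR-18a-5p, and 6 HM reads, all of 3p-miRNAs. Ccnd1, Kpna2 and Mat2a (the enzyme that makes S-adenosylmethionine) had 15, 11 and 5 WT reads against 28, 14 and 14 HM reads. As a share of all hybrids, pooled over libraries, this was 0.255% in WT and 0.286% in HM for Ccnd1, 0.187% and 0.143% for Kpna2, and 0.0850% and 0.143% for Mat2a, and these shares were not tested. Most of these HM reads came from 3p strands, 23 on Ccnd1 and 14 each on Kpna2 and Mat2a. Tnrc6a had 31 WT reads, 6 of the 9 and 24 of other 5p-miRNAs such as miR-30a-5p, and 9 HM reads, 6 of them of 3p-miRNAs. Suco had 9 WT reads and 4 HM reads.

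**Figure D4:**
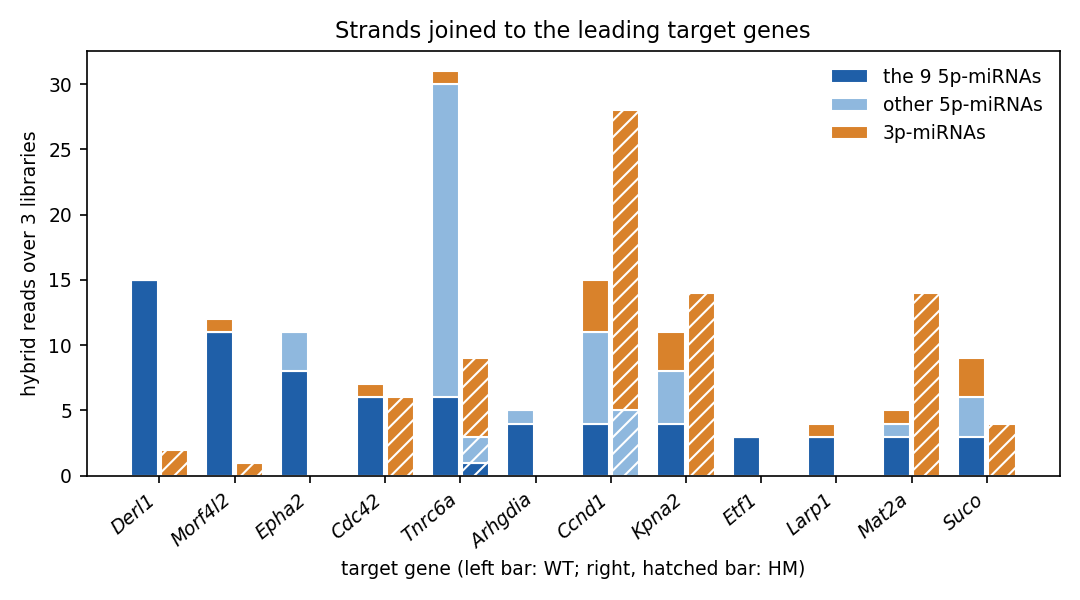
Hybrid reads over 3 libraries on the 12 genes with at least 3 WT reads of the 9, by strand, with WT in the left bar and HM in the right, hatched bar. Reads of the 9 (dark blue) make up all 15 WT reads of Derl1 and 11 of 12 of Morf4l2, while 3p-miRNAs (orange) make up 23 of 28 HM reads of Ccnd1 and all 14 of Kpna2 and of Mat2a.

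Hybrids of 3p-miRNAs on these genes played no part in the choice of the 9 and were tested in a fit across 262 genes with at least 10 such reads. Of all 262 genes, 5 (1.91%) were called, all lower in HM, whereas with TMM scaling 9 were called, 6 higher and 3 lower. Over the 262 genes the log2 fold change had a median of 0.19. Of the 12 genes 3 had enough reads, and they reached the minimum only through HM libraries, so they are no sample of the 12. 3p reads on Ccnd1 were 3, 0 and 1 in WT against 5, 11 and 7 in HM, with a log2 fold change of 0.73 ± 0.82 (SE) and an adjusted p of 0.746 by edgeR. On Kpna2 they were 1, 1 and 1 in WT and 3, 8 and 3 in HM, with a log2 fold change of 0.41 ± 0.96 (SE) and an adjusted p of 0.905 by edgeR. On Mat2a they were 0, 1 and 0 in WT and 2, 8 and 4 in HM, with a log2 fold change of 1.85 ± 1.25 (SE) and an adjusted p of 0.514 by edgeR. None of the 3 was called by edgeR or DESeq2, and none had an unadjusted edgeR p under 0.05. Over the alternatives the adjusted p ranged from 0.412 to 0.993 for Ccnd1, from 0.705 to 0.985 for Kpna2 and from 0.249 to 0.843 for Mat2a. The log2 fold change of Ccnd1 went to 2.05 when WT library 1 was left out and to 0.014 when WT library 2 was, and leaving out the latter took that of Mat2a to 4.77. That of Kpna2 was -0.029 with each entry counted once. The other 9 genes had too few 3p reads to be tested.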

How the data were processed

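AGO2 CLASH hybrids of 3 WT and 3 HM libraries of P19 cells were analysed, grouped by sample titles. The authors named the miRNA part with QuagmiR, mapped the target part with Bowtie2 to 3′ UTRs of mouse coding genes, and kept pairs that TargetScan predicts. Versions, genome build, and the handling of duplicates and multiple mappings were not given in the sources used here, so reads may not be independent molecules and no target coordinates are printed. The deposited table gives unscaled read counts per hybrid sequence (15159 entries, 15680 reads, 97.8% of entries with 1 read). Library totals were 1621 to 5341 reads.

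Reads were summed per miRNA and per gene. Features with at least 10 reads were tested with the edgeR 4.0.16 quasi-likelihood test (R 4.3.3), genotype as the only term, the total of 3p hybrids as library size and Benjamini-Hochberg adjustment over all features at 0.05. DESeq2 1.42.0, other scalings, read minimums, each entry counted once, the replicate number as a block and leaving out each library were alternatives. Ratios carry exact conditional intervals, shares 95% Wilson intervals. Shares, sites and figures used Python 3.11.15, pandas 2.3.3, scipy 1.17.1 and matplotlib 3.10.9. Scripts were tested on simulated counts with 4-fold changes. The miRNA fit recovered 15 of 24 of these and the gene fit 12 of 66 (18.2%), with 0 false calls in either. A gene that was not called may therefore still differ. Sequences came from RefSeq (all 9 strands matched) and from the deposited fragments. Printed site stretches are the part common to most fragments, at most 30 nt. Of 3200 gene names, 2909 matched a RefSeq symbol and 172 a synonym, and names are printed as deposited.

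Named genes were the 3 with most WT reads per strand, at least 3 reads each, beside well-known targets with at least 3 WT reads and genes of the 12-gene list that were called. Other genes, such as Ccne1, Wee1, Smad2, Etf1, Larp1, Mat2a, Suco, Foxk1 and Kdm2a, fell outside this rule. They were named after their values were seen. The well-known targets were written from general knowledge, and results for 1 gene are not reported here. The strands and all lists were chosen with earlier results of these data known.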

Additional observations from a re-analysis of the deposited data

How the results depend on the processing

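The genotype counts rest on few reads. The spread between 3 libraries of a genotype was estimated jointly over all tested features, so a p-value does not rest on 1 feature's own spread alone. Called miRNAs numbered 56 (15 higher and 41 lower in HM), 27 with a minimum of 50 reads, 49 with the replicate block and 40 to 61 without 1 library. The split was 32 higher and 31 lower with all hybrids as library size and 21 and 33 with TMM. Of the 9 strands 8 were called lower, 2 with a minimum of 50 reads, when fewer could be tested, and 5 to 9 without 1 library, with 5 without WT replicate 2. Of their 3p strands 1 was called, 0 with DESeq2, with a minimum of 50 reads or with the replicate block, and 0 to 1 without 1 library. Genes called by 3p hybrids numbered 5, all lower, and 9 with TMM (6 higher and 3 lower), 3 with each entry counted once, 0 with DESeq2, 2 with a minimum of 30 reads, 1 with no minimum, 0 with the replicate block and 1 to 4 without 1 library (1 without WT replicate 1 or HM replicate 2, 2 without WT replicate 2 or HM replicate 3, 3 without HM replicate 1). With hybrids of all miRNAs other than the 9 there were 57, 36 of them lower (10.7% of 338 genes), and 1 of the 12 genes and of the named genes, Tnrc6a, was called lower (edgeR adjusted p = 0.00284). This setting includes other 5p-miRNAs. No 3p call among the 12 genes was made under the other settings. Among hybrids of 5p-miRNAs only, the 9 made up 9.20% in WT and 3.13% in HM. With bases 2 to 7, 67.1% of the WT reads of the 9 held a seed match. Without WT replicate 1, miR-181a-5p had no seed match and no read on Tgif2, and miR-7a-5p none on Map2k3. Same-numbered libraries did not deviate together (correlations 0.0944, -0.0642 and 0.0667), so the numbers were not taken as pairs. The sign turned for Kpna2 by 3p hybrids, which was not called (log2 fold change 0.41, and -0.029 with each entry counted once).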
